A study of Mus musculus with 4 samples.

Results

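The antitrypsin genes Serpina1a, Serpina1b, Serpina1c, Serpina1d and Serpina1e, 5 of the 32285 genes in the deposited matrices, were followed through the cells of 4 single-cell RNA libraries of mouse pancreatic islets. They were taken by gene symbol, and were chosen by their measured UMI levels: Serpina1a, Serpina1b and Serpina1d had marked alpha-like cells in the library from floxed mice without Cre. The levels of these genes in that library are therefore given as a description. All islets came from male mice aged 8 weeks. The Cre-negative library came from mice with both alleles of Tet2 and of Tet3 floxed and no Pdx1 cre (Pdx1 cre-), and the Cre-positive library from mice with the same floxed alleles and Pdx1 cre (Pdx1 cre+), in which Cre is driven by Pdx1, a gene of the pancreatic lineage. The control offspring library came from young of control mothers, and the IHG offspring library from young of mothers in an intrauterine hyperglycemia model. Each group had 1 library. The sources used here do not give the strain, the number of mice pooled or how the maternal hyperglycaemia was made. With 1 library per group no difference between groups could be tested, and all intervals given are exact 95% intervals that cover counting error only.

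Antitrypsins are secreted serpins, single-use inhibitors that trap a serine protease by a suicide mechanism, and neutrophil elastase is their best known target. The liver makes most of the antitrypsin of plasma, under the control of liver-enriched factors such as HNF4A. Humans carry 1 antitrypsin gene, SERPINA1, whereas the mouse carries a cluster of near-identical copies whose reactive loops differ, so that the copies do not all inhibit the same proteases. Alpha cells are the islet cells that make glucagon, from Gcg, and PP cells those that make pancreatic polypeptide, from Ppy.

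The 5 genes lay side by side on the minus strand of chromosome 12 between positions 103728156 and 103956897 of GRCm38, a stretch of 228.742 kb, in the order Serpina1b, Serpina1d, Serpina1a, Serpina1c and Serpina1e by rising coordinate (RefSeq, GRCm38.p6). Each spanned about 10 kb, from 9967 bases for Serpina1e to 10325 bases for Serpina1a. Their promoters are shown because all 5 carry the same motif shortly before the start of the gene. The stretches below, from RefSeq GRCm38.p6, run 5′ to 3′ on the minus strand up to the base before the annotated start, and the capitals mark the motif.
Serpina1a, chr12:103863620-103863700: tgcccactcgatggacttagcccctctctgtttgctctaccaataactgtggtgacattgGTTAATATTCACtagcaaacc
Serpina1b, chr12:103738190-103738275: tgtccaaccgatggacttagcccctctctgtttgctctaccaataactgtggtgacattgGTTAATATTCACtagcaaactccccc
Serpina1c, chr12:103904951-103905037: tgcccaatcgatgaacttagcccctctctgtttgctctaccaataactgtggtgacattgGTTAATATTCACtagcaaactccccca
Serpina1d, chr12:103773634-103773709: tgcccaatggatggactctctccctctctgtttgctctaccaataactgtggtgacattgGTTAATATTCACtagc
Serpina1e, chr12:103956898-103957035: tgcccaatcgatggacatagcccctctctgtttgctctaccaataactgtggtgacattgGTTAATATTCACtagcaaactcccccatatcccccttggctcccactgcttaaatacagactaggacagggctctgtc

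Over the first 76 bases of these stretches, 66 were the same in all 5 genes. Serpina1d differed from Serpina1a at 6 of the 76 positions, Serpina1b at 3, and Serpina1c and Serpina1e at 2 each. The motif GTTAATATTCAC was copied from the Serpina1a promoter after the promoters had been read, so its presence in all 5 genes was known before the search. Searched on both strands, it was found in 5 of 32851 RefSeq promoter windows (0.0152%), and these were the 5 genes described here. It was not found in the window of Serpina1f, the neighbouring serpin gene. Its first letters, GTTAAT, were found in 7.10% of all windows. The match is a description of sequence and says nothing of binding in islet cells.

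The likeness of the genes limits how far the counts of single members can be told apart. Between pairs of the 5 transcripts the identity ranged from 95.17% to 97.86% (GENCODE vM21). Within the last 500 bases, which a 3′ method reads most, 8.23% of 100-base windows of Serpina1a were shared with another member, as were 1.25% of those of Serpina1b, 9.73% of Serpina1c, 2.74% of Serpina1d and 0% of Serpina1e. In the same annotation the model of Serpina1b runs from 103728156 to 103830373 and covers Serpina1d. Values of the summed family are therefore firmer than those of a single member.

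The libraries held 6421 to 16459 cell barcodes and 52489846 to 109110492 UMIs (unique molecular identifiers, each counting 1 captured molecule), and between 0.903% and 2.04% of the barcodes of the smaller library of a pair recurred in the other. After filters and the removal of likely doublets 5572 cells remained without Cre, 9427 with Cre, 14730 from control and 11414 from IHG offspring. Cell classes were found by clustering without the 5 genes and named from marker lists. The alpha-like class rested on 2 clusters that divided by library: both were led by Gcg, and the one with Edn3 but not Pappa2 among its 10 leading genes held 1384 of 1444 Cre-positive and 925 of 958 control alpha-like cells, whereas the one with Pappa2 but not Edn3 held 966 of 1024 Cre-negative cells, and the IHG offspring had 833 and 1165 cells in them. Tet2, the gene to be deleted, was at 56.8 counts per 1000000 UMIs (CPM) in Cre-negative, 28.8 in Cre-positive, 43.5 in control and 32.7 CPM in IHG offspring alpha-like cells, and Tet3 at 20.2, 9.24, 17.4 and 12.2 CPM. Which exons were floxed is not given, and 3′ counts can lie outside them, so these values do not check the deletion.

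The Cre-negative library stood apart in its alpha-like cells. The median cell drew 3.17% of its UMIs from Gcg there, against 29.4% in Cre-positive, 29.1% in control and 35.0% in IHG offspring alpha-like cells. Cells with under 1% of their UMIs from Gcg made up 440 of the 1024 Cre-negative alpha-like cells (43.0%), 19 Cre-positive cells (1.32%), 5 control cells (0.522%) and 28 IHG offspring cells (1.40%). Not all alpha cell markers followed Gcg. The alpha cell homeobox gene Irx2 was at 138 CPM in Cre-negative, 133 in Cre-positive, 146 in control and 140 CPM in IHG offspring alpha-like cells. In the Cre-negative cells with under 0.1% Gcg, Irx2 was at 110 CPM, beside 41927 CPM of Pyy, the gene of the gut and islet hormone peptide YY.

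The 5 genes were found mainly in alpha-like and PP-like cells in every library. Their summed level in alpha-like cells was 263 CPM (interval 251 to 276) in the Cre-negative library, 32.0 CPM (28.6 to 35.7) in the Cre-positive, 8.56 CPM (6.03 to 11.8) in the control offspring and 21.7 CPM (19.3 to 24.3) in the IHG offspring library. In PP-like cells it was 229 CPM (212 to 248) in Cre-negative, 56.7 CPM (51.5 to 62.2) in Cre-positive, 15.4 CPM (10.1 to 22.6) in control and 15.7 CPM (10.7 to 22.3) in IHG offspring cells. In alpha-like cells the order was Cre-negative, Cre-positive, IHG offspring and control, with no overlap of counting intervals between neighbours. The order of the middle pair depends on the clustering, since with each library clustered on its own they were at 21.5 CPM in Cre-positive and 21.65 CPM in IHG offspring cells. In PP-like cells Cre-negative again lay above Cre-positive, while the intervals of control and IHG offspring overlapped. Alpha-like and PP-like cells together held 96.6% of the family's UMIs in the Cre-negative library, 67.4% in Cre-positive, 67.0% in control and 75.5% in IHG offspring. In the Cre-positive and control libraries 28.9% and 27.7% fell in an unnamed cluster rich in both Gcg and Sst, whose cells held 2.36 times the UMIs usual for their library and in which the family was at 19.2 and 6.91 CPM. Of its 326 family UMIs in the Cre-positive library, 25 and 76 lay in 2 cells rich in the hormone ghrelin, without which the level was 13.3 CPM.

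Insulin-making beta-like cells were the largest class and held little of the family, at 1.46 CPM in Cre-negative, 0.723 in Cre-positive, 0.0390 in control and 1.15 CPM in IHG offspring cells. The alpha-like level was 180 times the beta-like level in the Cre-negative library (136 to 243), 44.3 times in Cre-positive (29.2 to 70.1), 220 times in control (69.5 to 1113, on 3 UMIs in beta-like cells) and 18.8 times in IHG offspring (14.4 to 25.0). Of the 66 family UMIs in the 5979 IHG offspring beta-like cells, 57 lay in a single cell, which also held 53 UMIs of hepatocyte markers and 1560 of Ins2; 24 of its 57 were of Serpina1c, a member scarce in alpha-like cells. Without beta-like cells of 10 or more family UMIs, 1 each in the IHG offspring and Cre-positive libraries, the ratio was 138 in IHG offspring (71.8 to 305) and 106 in Cre-positive (56.95 to 223). Somatostatin-making delta-like cells were at 3.79 CPM in Cre-negative, 1.27 in Cre-positive, 0.270 in control and 3.40 CPM in IHG offspring cells. Endothelial-like cells held 1, 3, 0 and 8 UMIs of the family in that order of libraries, and pericyte-like cells held none in 31, 76, 21 and 174 cells, which allows levels of up to 51.8, 21.8, 123.0 and 9.49 CPM (3 counts).

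**Figure D1:**
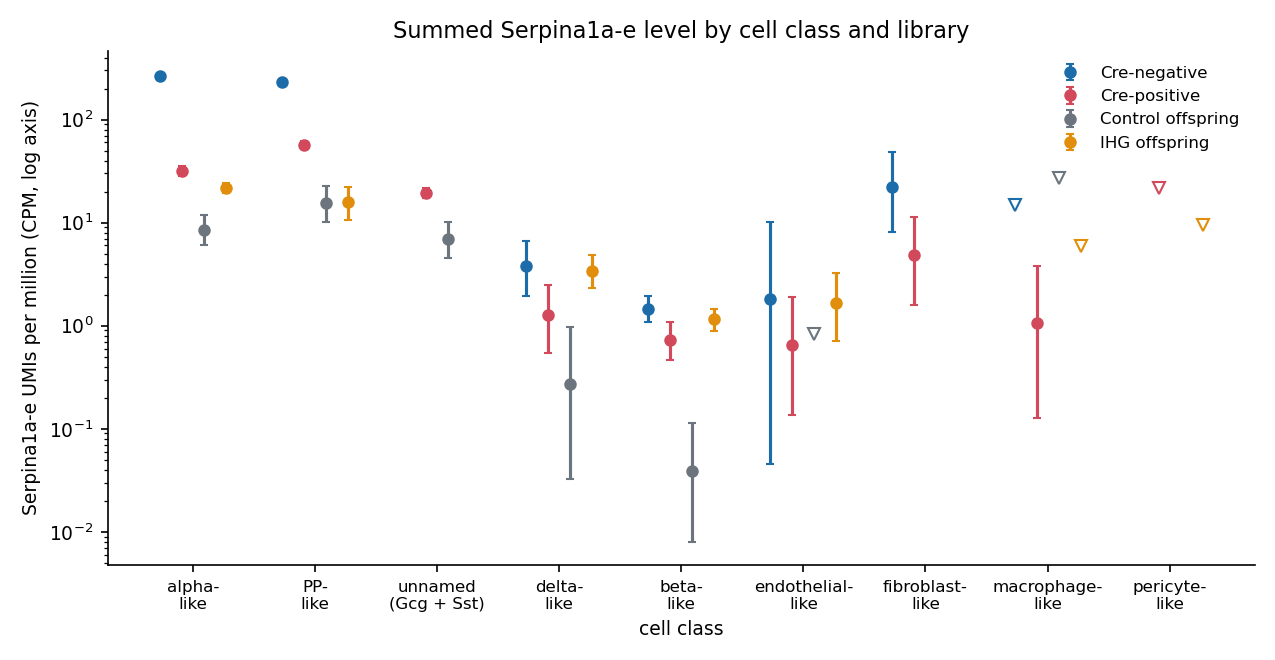
Summed level of Serpina1a to Serpina1e (CPM, log axis) in each cell class of at least 50 cells, by library; bars are 95% counting intervals, and open triangles mark classes with 0 UMIs, drawn at the level that 3 counts would give. Among the classes with a family UMI, alpha-like and PP-like cells lie highest in every library; the triangles are limits and have no place in that order. In both classes the Cre-negative library, at 263 and 229 CPM, lies above the other 3.

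The share of cells with a UMI of the family is limited by depth, and a cell without one may still hold the transcripts. At least 1 family UMI was counted in 314 of 1024 Cre-negative alpha-like cells (30.7%), 160 of 1444 Cre-positive cells (11.1%), 29 of 958 control cells (3.03%) and 117 of 1998 IHG offspring cells (5.86%). In beta-like cells the shares were 1.41%, 0.399%, 0.0282% and 0.151%, at median depths of 9529, 10136, 5836 and 8918 UMIs against 5931, 5953, 4101 and 6374 in alpha-like cells. With every cell thinned to 2000 UMIs, and 100, 80, 56 and 25 shallower cells left out, the alpha-like shares were 18.3%, 5.57%, 1.89% and 2.48%, and the beta-like shares 0.413%, 0.0757%, 0.00962% and 0.0338%. Among the Cre-negative alpha-like cells 155 held 1 UMI, 121 held 2 to 9, and 38 held 10 or more; these 38 cells accounted for 66.5% of the family's 1695 UMIs there, and the fullest cell held 127. Cells with 10 or more numbered 3 in Cre-positive and 4 in IHG offspring alpha-like cells, with 20.8% and 35.8% of the UMIs, and the fullest control alpha-like cell held 4.

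Members turned up in the same cells. Among the 105 Cre-negative alpha-like cells with a UMI of Serpina1b, 73 (69.5%) also had one of Serpina1a, against 88 of the 919 cells without Serpina1b (9.58%), at median depths of 6113 and 5889 UMIs. In the Cre-positive library Serpina1a was found in 13 of 33 cells with Serpina1b (39.4%) and in 38 of 1411 without (2.69%). In the IHG offspring it was found in 7 of 22 (31.8%) and in 9 of 1976 (0.455%). How many reads fit both copies was not tested. The control library had too few UMIs of these genes to say, with 1 of Serpina1a and 2 of Serpina1b in alpha-like cells.

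Among the ranges of Gcg share with a family UMI, the level was lowest in the alpha-like cells richest in Gcg. It did not fall steadily from range to range. In Cre-negative alpha-like cells it was 480 CPM (449 to 513) in the 321 cells with under 0.1% of their UMIs from Gcg, 531 CPM in the 119 cells with 0.1 to 1%, 179 CPM in the 104 cells with 1 to 5%, 180 CPM in the 109 cells with 5 to 10%, 114 CPM in the 191 cells with 10 to 20%, and 82.3 CPM (68.2 to 98.5) in the 180 cells with 20% or more. In Cre-positive alpha-like cells it was 0 in the 4 cells under 0.1%, then 353, 383, 154, 99.3 and 20.8 CPM, on 15, 12, 24, 160 and 1229 cells. In IHG offspring it was 1193, 185, 462, 477, 68.95 and 9.21 CPM, on 14, 14, 9, 19, 90 and 1852 cells. Single cells weigh on these levels. The lowest IHG offspring range holds a ghrelin-rich cell with 72 of its family UMIs, without which it was at 35.6 CPM on 2 UMIs, and the Cre-positive range of 0.1 to 1% holds one with 8, without which it was at 139 CPM on 5 UMIs. In Cre-negative cells with under 0.1% the level was 383 CPM without 2 such cells. With or without the ghrelin-rich cells, in these 3 libraries the cells richest in Gcg had the lowest level of all bins with a family UMI. Control alpha-like cells, with 37 family UMIs in all, gave 54.7, 15.8, 13.2 and 7.56 CPM from 1% Gcg upwards, and the first 3 of these rest on 1, 1 and 7 UMIs.

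A cell with more Gcg has fewer UMIs left for other genes, so the same levels were taken per 1000000 UMIs that were neither hormone nor mitochondrially encoded. The genes taken out as hormone were Ins1, Ins2, Gcg, Sst, Ppy, Pyy and Iapp, and with them Ttr, which encodes a carrier protein. Ghrl was left in the total. On that scale the level in cells with under 1% Gcg was 4.30 times (3.56 to 5.24) that in cells with 20% or more in the Cre-negative library, 8.02 times (4.19 to 14.1) in Cre-positive and 52.6 times (39.3 to 70.2) in IHG offspring; as CPM the ratios were 5.98, 11.7 and 78.6. The last pair rests on few cells, since 1 ghrelin-rich cell gave 72 of the 84 family UMIs under 1% Gcg in IHG offspring and another gave 8 of the 13 in Cre-positive. Without ghrelin-rich cells the ratios on the scale without hormones were 3.66 (3.02 to 4.46) in Cre-negative, 3.14 (1.006 to 7.45) in Cre-positive, on 5 UMIs under 1% Gcg, and 7.96 (4.00 to 14.4) in IHG offspring. With the fullest cell of each side also left out, the ratio was 6.59 (5.09 to 8.69) in Cre-negative and 6.54 (2.91 to 12.9) in IHG offspring. In Cre-positive it was then 0.704 (0.0177 to 3.98) on 1 UMI under 1% Gcg, so the direction there turned on 1 cell. Cells under 1% Gcg supplied 70.7% of the family's UMIs among Cre-negative alpha-like cells, 4.04% in Cre-positive, 28.4% in IHG offspring and 0% in control cells; without ghrelin-rich cells the first 3 shares were 67.0%, 1.59% and 5.36%. At the other end, cells with 20% or more supplied 7.02%, 57.8%, 39.9% and 75.7%, with the libraries in the same sequence but control last.

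**Figure D2:**
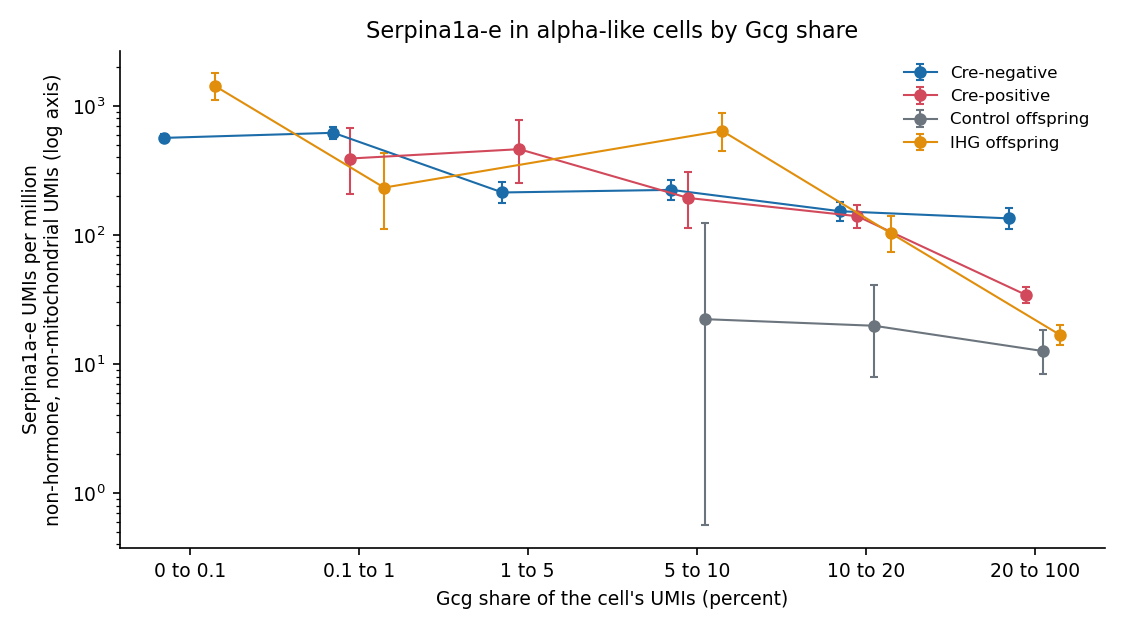
Summed Serpina1a to Serpina1e level in alpha-like cells (per 1000000 UMIs that are neither hormone nor mitochondrial, log axis) against the Gcg share of the cell's UMIs, by library; bars are 95% counting intervals, and bins with under 10 cells or with 0 family UMIs are left out. The intervals of Cre-negative and Cre-positive cells part at 20% or more Gcg, with Cre-negative higher, and all 4 libraries are lowest there; the first IHG offspring point and the Cre-positive point at 0.1 to 1% each rest mostly on 1 ghrelin-rich cell.

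**Figure D3:**
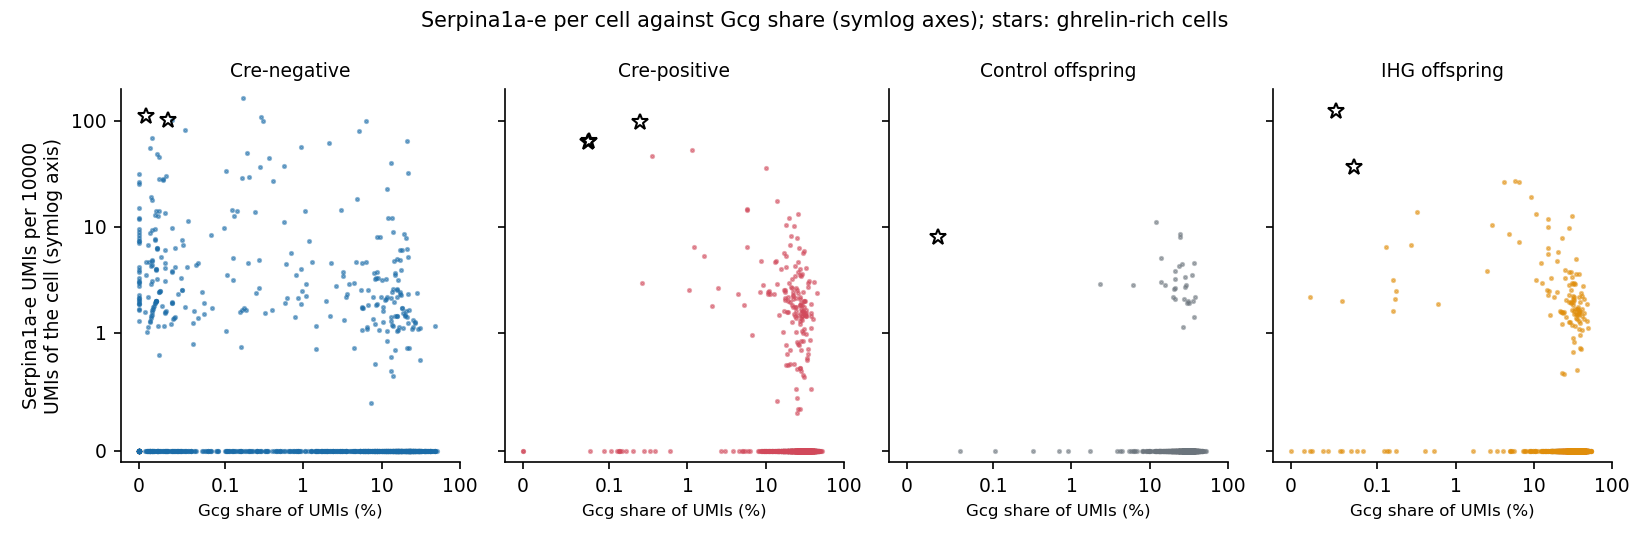
Family UMIs per 10000 UMIs of each alpha-like cell (dots) and each ghrelin-rich cell of any class (stars) against its Gcg share, both on symmetric log axes that include 0, in 1 panel per library. Cells under 1% Gcg are many in the Cre-negative library (440) and few in the others (19, 5 and 28), and the ghrelin-rich cells lie at the top left.

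Serpina1a gave the most UMIs of the family in Cre-negative alpha-like cells and Serpina1d in the other 3 libraries. Serpina1a was at 111 CPM in Cre-negative (712 UMIs), 8.35 in Cre-positive (84 UMIs), 0.231 in control (1 UMI) and 4.47 CPM in IHG offspring cells (61 UMIs). Serpina1b was at 64.8, 5.17, 0.463 and 4.69 CPM in the same order. Serpina1d was at 71.4, 17.4, 7.87 and 11.8 CPM and had the narrowest range of the 3. Serpina1c and Serpina1e, which the choice of the family did not rest on, were the lowest: Serpina1e was at 11.2, 0.894, 0 and 0.586 CPM, and Serpina1c at 5.28, 0.199, 0 and 0.147 CPM, on 34, 2, 0 and 2 UMIs. The 0 counts in control cells allow up to 0.694 CPM for either gene.

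As a share of the family, Serpina1d made up 27.1% of the UMIs in Cre-negative alpha-like cells (25.0 to 29.3), 54.3% in Cre-positive (48.7 to 59.9), 91.9% in control (78.1 to 98.3) and 54.4% in IHG offspring cells (48.5 to 60.2). The intervals of the Cre-positive and IHG offspring shares overlapped, and the Cre-negative share lay below and the control share above both. Without ghrelin-rich cells the shares were 29.7%, 55.7% (50.05 to 61.3), 91.9% and 67.0% (60.4 to 73.1). In PP-like cells the Serpina1d share was 33.5%, 58.1%, 53.8% and 77.4% in the order used above, the last pair on 26 and 31 UMIs. The control share there turns on 1 ghrelin-rich cell with 9 family UMIs and none of Serpina1d, and was 82.4% (56.6 to 96.2) without it. In alpha-like cells with under 1% Gcg it was 22.5% in Cre-negative, 23.1% in Cre-positive and 21.4% in IHG offspring, on 1198, 13 and 84 UMIs. In those with 20% or more it was 39.5%, 56.5% and 77.1%, and 96.4% in control, on 119, 186, 118 and 28 UMIs. Without ghrelin-rich cells the shares under 1% Gcg were 25.5% in Cre-negative (22.9 to 28.3), 3 of 5 UMIs in Cre-positive (14.7 to 94.7%) and 58.3% in IHG offspring (27.7 to 84.8). A lower share in the Gcg-poor cells thus remained in the Cre-negative library, and the other 2 had too few UMIs to say.

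**Figure D4:**
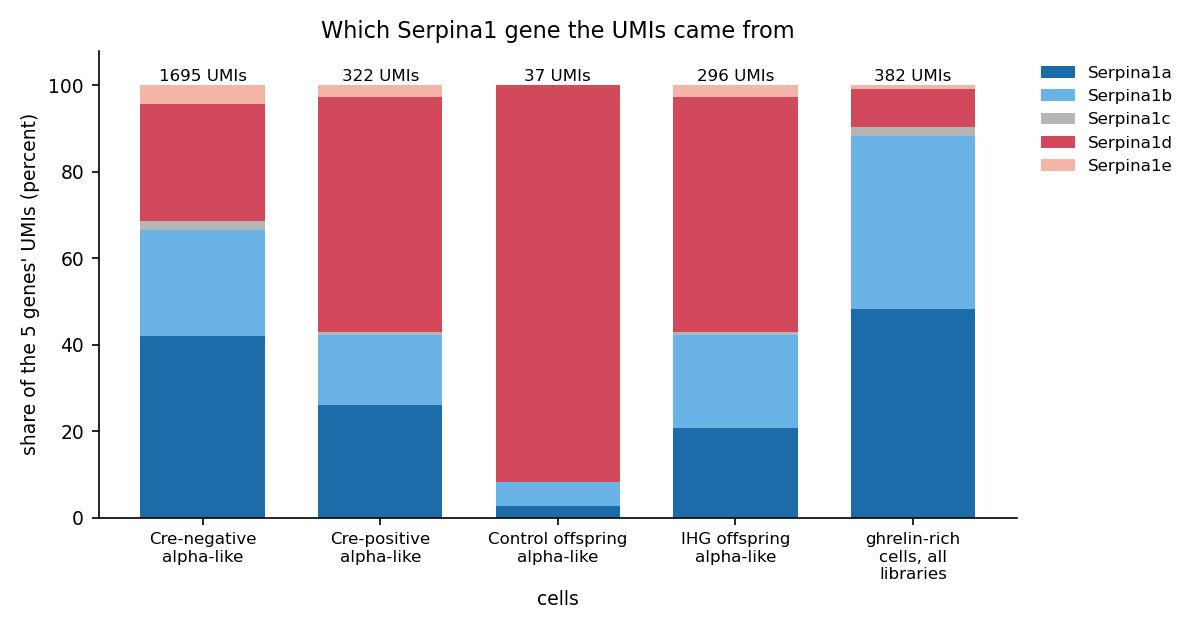
Share of each gene among the 5 genes' UMIs (percent, stacked bars) in alpha-like cells of each library and in the 8 ghrelin-rich cells, with the number of UMIs above each bar. Serpina1d runs from 27.1% in Cre-negative to 91.9% in control alpha-like cells and is 8.90% in the ghrelin-rich cells.

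High levels per cell were found in cells that make ghrelin, the hunger hormone gene Ghrl being the mark of the rare epsilon cells of the islet. This group was chosen after the values were seen, as cells with 1% or more of their UMIs from Ghrl, and held 8 of all 41143 cells: 2 Cre-negative, 3 Cre-positive, 1 control and 2 IHG offspring cells. Another 5 cells had 0.1 to 1%. All 8 had family UMIs, 382 together, which was 9.34% of all family UMIs in the series. Per cell the level ran from 804 CPM, in the control cell with 9 family UMIs, to 12395 CPM, in an IHG offspring cell with 72 family and 919 Ghrl UMIs. The Cre-negative cells held 60 and 127 family UMIs, the Cre-positive cells 8, 25 and 76, and the other IHG offspring cell 5. Such levels were not confined to these cells. A Cre-negative alpha-like cell without a Ghrl UMI held 58 family UMIs among its 8970 UMIs. Gcg was between 1 and 9 UMIs in each of the 8 ghrelin-rich cells. Clustering had put 4 of them in the alpha-like class, 2 in the unnamed cluster, 1 in the PP-like and 1 in the delta-like class.

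In the ghrelin-rich cells Serpina1a made up 48.2% of the family's UMIs and Serpina1b 40.1%, with 8.90% from Serpina1d (6.24 to 12.2), 2.09% from Serpina1c and 0.785% from Serpina1e. The Serpina1d share was thus below that of the alpha-like cells of every library. Without these cells the alpha-like level was 235 CPM in Cre-negative, 31.2 in Cre-positive, 8.56 in control and 16.4 CPM in IHG offspring cells, and the control PP-like level was 10.1 CPM (5.91 to 16.2).

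Between the floxed libraries the family was lower with Cre. In alpha-like cells with Cre the summed level was 8.23-fold lower (7.30 to 9.30). Serpina1a was 13.3-fold lower (10.6 to 16.8), Serpina1b 12.5-fold (9.38 to 17.1), Serpina1e 12.5-fold (6.23 to 28.4) and Serpina1c 26.6-fold (6.81 to 228, on 2 UMIs in the Cre-positive library). Serpina1d was 4.11-fold lower (3.44 to 4.92), an interval below those of the other 4 members. All 5 ratios were past 1.5-fold, and 3 of the 5 genes reached the 20 CPM asked for in at least 1 of the libraries, all through the Cre-negative library that had served to choose them; of all 6807 genes that reached it, 38.2% were lower by 1.5-fold or more and 4.54% higher by as much. The median gene had a log2 ratio of -0.48, and with that shift taken out the family was 5.91-fold lower; relative to the median gene 6.99% of all genes were lower and 12.2% higher by 1.5-fold or more. In PP-like cells the family was 4.05-fold lower (3.58 to 4.58). The PP-like cells of these libraries also differed in hormone genes. Ppy was at 29830 CPM in Cre-negative and 61372 in Cre-positive cells, Sst at 2300 and 26307, and Ins1 at 468 and 11974. Pyy went the other way, at 150358 and 56530 CPM. Whether this bears on the ratio was not tested.

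This difference was read again at matched Gcg share, since Gcg-poor cells were common in the Cre-negative library alone. Per 1000000 UMIs that were neither hormone nor mitochondrial, the Cre-positive level was 0.632 times the Cre-negative level (0.333 to 1.10) in cells with 0.1 to 1% Gcg, 2.16 times (1.15 to 3.78) at 1 to 5%, 0.865 times (0.488 to 1.44) at 5 to 10% and 0.916 times (0.696 to 1.20) at 10 to 20%. These ranges held 15, 12, 24 and 160 Cre-positive cells with 13, 14, 17 and 92 family UMIs. In cells with 20% or more, 1229 Cre-positive and 180 Cre-negative, it was 3.92-fold lower (3.09 to 4.96). There Serpina1a was 5.99-fold lower (3.84 to 9.34), Serpina1b 4.91-fold (2.75 to 8.68) and Serpina1d 2.75-fold (1.90 to 3.91), while Serpina1e, on 7 and 4 UMIs, was 3.50-fold lower with an interval that reached past equality (0.752 to 13.8). Single cells bear on all of these values. Without ghrelin-rich cells the ratio at 0.1 to 1% was 0.249 (0.0803 to 0.588). At 10 to 20% Gcg 1 Cre-positive cell held 35 of the 92 UMIs, and at 20% or more 1 Cre-negative cell held 58 of the 119. With the fullest cell of each library also left out of each range, the ratio was 0.0579 on 1 Cre-positive UMI (0.00146 to 0.325) at 0.1 to 1%, 2.35 (0.973 to 4.92) at 1 to 5%, 0.835 (0.385 to 1.62) at 5 to 10% and 0.705 (0.503 to 0.977) at 10 to 20%. At 20% or more the family was then 2.24-fold lower (1.64 to 3.01), Serpina1a 3.39-fold (1.92 to 5.84), Serpina1b 2.46-fold (1.06 to 5.31) and Serpina1d 1.52-fold (0.932 to 2.40). A lower level with Cre at 20% or more Gcg was thus seen with and without these cells, and between 1 and 10% none was detectable. Over all alpha-like cells the family was 8.06-fold lower (7.08 to 9.19) without them. Cre, the mice and the islet preparation differ together between these libraries and cannot be told apart.

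Between the offspring libraries the family was low in both. The summed alpha-like level was 2.53-fold higher in IHG offspring than in control offspring (1.80 to 3.67). Serpina1d, the one member with more than 2 UMIs in the control cells, was 1.5-fold higher (1.03 to 2.24), whereas the ratios of Serpina1a, 19.3 (3.34 to 775), and Serpina1b, 10.1 (2.69 to 85.5), rest on 1 and 2 control UMIs. None of the 5 reached 20 CPM in either library; among the 5806 genes that did, 1.46% were higher by 1.5-fold or more and 7.2% lower by as much, with a median log2 ratio of -0.08, relative to which the shares were 2.72% and 5.61%. Without the 1 ghrelin-rich IHG offspring cell in the class the family ratio was 1.92 (1.35 to 2.80) and that of Serpina1d 1.40 (0.958 to 2.09). In cells with 20% or more Gcg, 1852 IHG offspring and 816 control cells, the family ratio was 1.22 (0.801 to 1.91) and that of Serpina1d 0.974 (0.628 to 1.56), so that no difference was detectable in the most Gcg-rich cells. At 10 to 20% Gcg, per 1000000 UMIs that were neither hormone nor mitochondrial, the family ratio was 5.20 (2.32 to 13.7) on 42 and 7 UMIs. In PP-like cells it was 1.02 (0.585 to 1.78), and 1.55 (0.830 to 2.98) without the ghrelin-rich control cell.

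**Figure D5:**
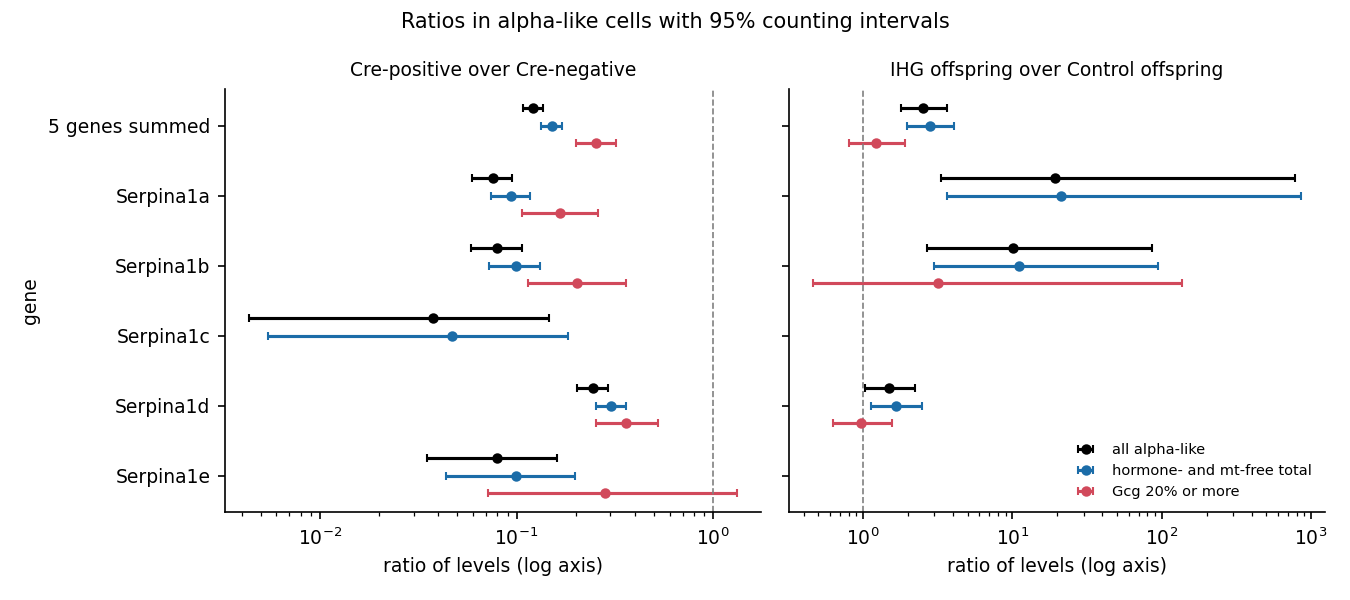
Ratio of levels in alpha-like cells (log axis) for the summed family and each gene, Cre-positive over Cre-negative on the left and IHG offspring over control offspring on the right, with 95% counting intervals, for all alpha-like cells, with hormone and mitochondrial UMIs out of the total, and for cells with 20% or more Gcg; ratios with 0 UMIs on a side are left out. All drawn ratios on the left lie below 1, and on the right the family moves from 2.53 to 1.22 when cells are limited to high Gcg.

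Other serpins did not move as a block with the 5 genes. Of 19 further clade A serpins, the protein family of antitrypsin, 2 reached 20 CPM. Serpina10, the protein Z-dependent inhibitor of coagulation, was at 97.7 CPM in Cre-negative, 89.1 in Cre-positive, 60.9 in control and 74.0 CPM in IHG offspring alpha-like cells, a ratio of 0.913 with Cre (0.823 to 1.012). Serpina7, which encodes the thyroxine-binding globulin, was at 38.2, 11.3, 10.4 and 13.8 CPM, with a ratio of 0.297 with Cre (0.235 to 0.372), or 2.42-fold lower relative to the median gene. Of 21 serpins of other clades 5 reached 20 CPM, and among them Serpinh1 and Serpinb6a were past 1.5-fold higher with Cre and Serpine2 past 1.5-fold lower, also relative to the median gene. Serpinh1, the collagen chaperone of the endoplasmic reticulum, ran against the antitrypsins, at 47.5 CPM in Cre-negative and 242 CPM in Cre-positive cells, and at 0.436 of the control level in IHG offspring cells (0.403 to 0.472). None of 15 proteases that antitrypsins can inhibit reached 20 CPM in alpha-like cells of any comparison.

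Of 20 other plasma proteins of the liver, 4 reached 20 CPM in alpha-like cells, some of them far above the antitrypsins. Ttr, which islet cells are known to make, was at 25232 CPM in Cre-negative, 11249 in Cre-positive, 14643 in control and 22113 CPM in IHG offspring cells, and Gc at 738, 303, 293 and 391 CPM. With Cre all 4 were at least 1.5-fold lower, beside 38.2% of all genes tested. Ttr, the thyroxine and retinol carrier transthyretin, was at 0.446 of the Cre-negative level and Rbp4, the retinol-binding protein, at 0.403. Gc, the vitamin D-binding protein, was at 0.411 and Ambp at 0.627. Relative to the median gene Ttr, Rbp4 and Gc stayed past 1.5-fold, at 1.61-fold, 1.78-fold and 1.75-fold lower, beside 6.99% of all genes. Ambp was 1.15-fold lower on that scale. In IHG against control offspring 3 reached 20 CPM and 1, Ttr, was past 1.5-fold, at 1.51 times the control level, beside 1.46% of all genes higher by as much. The summed hepatocyte markers, 7 genes, were at 10.4 CPM in Cre-negative, 8.65 in Cre-positive, 7.87 in control and 12.4 CPM in IHG offspring alpha-like cells, with Ahsg at 0 in all but the Cre-positive library.

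Of 14 known regulators of antitrypsin genes, 7 reached 20 CPM in the Cre comparison, and 1, Foxa2, a forkhead factor of endoderm, was past 1.5-fold lower, at 0.655 of the Cre-negative level; relative to the median gene it was 1.10-fold lower. Hnf4a, a nuclear receptor of liver and islet, was at 31.4 CPM in Cre-negative, 28.8 in Cre-positive, 21.3 in control and 17.2 CPM in IHG offspring cells. Il6ra, the interleukin 6 receptor, which raises antitrypsin in the liver, was at 287, 213, 238 and 301 CPM. In the offspring comparison 8 of the 14 reached 20 CPM and none was past 1.5-fold. Genes that fold, export and degrade secreted glycoproteins, 17 in all, were at a median log2 ratio of -0.47 with Cre, beside -0.48 over all genes, and 6 of the 16 that reached 20 CPM were past 1.5-fold lower, while relative to the median gene 0 were lower and 2 higher. These counts lie near the shares over all genes, 38.2% lower, and 12.2% higher relative to the median gene. Hspa5, the endoplasmic reticulum chaperone BiP, was the 1 gene of that list past 1.5-fold in the offspring comparison, at 0.422 of the control level.

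Among 18 measured genes of alpha cell identity and glucagon processing, 5 were lower and 1, Gcg, higher with Cre, beside 38.2% and 4.54% of all genes, and 2 were lower and 2 higher relative to the median gene, beside 6.99% and 12.2%. One of them, Pou3f4, a transcription factor of alpha cells, also had the pattern most like that of the family over 28 pairs of library and cell class (Pearson r of log2 of CPM with 5 added, 0.94, among 11489 genes). Pou3f4 was at 65.4 CPM in Cre-negative, 22.3 in Cre-positive, 10.6 in control and 14.1 CPM in IHG offspring alpha-like cells. Next came Scin, which encodes an actin-severing protein (r of 0.93), and Gabra4, a subunit of the GABA receptor (0.92), followed by Ugt8a, Galnt13, Ctxn2, Sv2b, Mctp2 and Sdf4 (0.88 to 0.86). The pairs share libraries and depth, so the likeness is a description. The members themselves followed the family sum with r from 0.85 for Serpina1c to 0.95 for Serpina1d.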

How the data were processed

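Islet cells were measured on the SeekOne MM microwell platform, per the labels' protocols. The deposited matrices hold counts, whole numbers of UMIs per gene and barcode, not normalized. The submitters' processing notes name Cell Ranger, Seurat and mm10; roles, versions and annotation: not given in the sources used here.

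Kept were cells with 500 genes or more and no more than 20% mitochondrial UMIs. Scrublet (scanpy 1.11.5, expected rate 0.06) marked doublets. Its own threshold took out 1.67% of the cells in the Cre-positive and 4.39% in the IHG offspring library; where it marked under 0.5%, the top 6% of scores were removed instead (6.01% of Cre-negative, 6.49% of control cells). Counts were scaled to 10000 per cell and logged. Leiden clustering (igraph 0.11.9, resolution 1) used 2000 variable genes without the 5 members, 30 components and 15 neighbours. Clusters were named where their marker score was 1 or more, led the next class by 1 or more and rested on 3 markers.

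UMIs were summed per library and class. Levels are CPM with exact Poisson intervals, shares have exact binomial (Clopper-Pearson) intervals, and ratios exact conditional binomial intervals; a count of 0 was set to 3 in ratios. Depth, as total UMIs, sets their width. A gene counted as past the fold at 20 CPM or more in 1 library and 1.5-fold. The ratio rule was run on simulated data with independent Poisson counts per gene. These lack the clumping of family UMIs in few cells, so the run says nothing of that spread. Named genes were the 5 members, listed genes at 20 CPM and the 10 genes most like the family; some of these are not reported here. The members and lists were chosen with earlier results of these data known. Promoters came from RefSeq (GRCm38.p6). Alternatives changed scaling, doublets, clustering, class, depth, Gcg share and filter.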

Additional observations from a re-analysis of the deposited data

How the results depend on the processing

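No paired analysis was possible because each group has 1 library, and no library could be left out. Single members stayed lower with Cre under all 54 combinations of member and alternative, and higher in IHG offspring in 31 of 32. The exception was Serpina1d in cells with 20% or more Gcg, at a log2 ratio of -0.038. The alternatives reuse the same UMIs, and Serpina1a, Serpina1b and Serpina1d were chosen through the Cre-negative library, so these counts are a description. Some intervals with Cre passed equality, as for Serpina1e at 20% or more Gcg (ratio 0.072 to 1.319) and Serpina1c in thinned cells (0.0034 to 1.711). Ratios against 0 UMIs that fix no direction were left out. The cause of the shifts below was not tested.

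With Cre the family's log2 ratio, -3.04 in the report, was -2.73 without hormone and mitochondrial genes, -2.45 by the hormone rule without clustering, -1.94 at 5% or more Gcg, -1.98 at 20% or more, -3.40 with no doublets removed, -3.33 with the libraries clustered apart and -2.56 with median-of-ratios scaling. In IHG offspring it was 1.34, and 0.79 at 5% or more Gcg, 0.28 at 20% or more and 1.44 with no doublets removed. The cut at 20% and the removal of ghrelin-rich cells, of the fullest cells and of beta-like cells of 10 or more family UMIs were chosen after seeing the data.

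The number of genes past 1.5-fold with Cre, 2912 (10.6% of them higher), was 1779 without hormone and mitochondrial genes (40.8% higher), 1527 at 20% or more Gcg (38.5%), 2867 with no doublets removed (12.9%), 1304 with median-of-ratios scaling (63.5%) and 7106 with no filter. For IHG against control it was 503 (16.9% higher), 508 with no doublets removed and 3150 with no filter.

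The family's level moved beyond its counting interval as follows. Without hormone and mitochondrial genes it was 341 CPM in Cre-negative, 51.5 in Cre-positive, 14.0 in control and 39.0 in IHG offspring. By the hormone rule it was 124, 22.7 and 15.5 CPM in Cre-negative, Cre-positive and IHG offspring. At 5% or more Gcg it was 113 in Cre-negative and 14.5 in IHG offspring, and at 20% or more 82.3, 20.8 and 9.21 in Cre-negative, Cre-positive and IHG offspring. With no doublets removed it was 250.1, 23.7 and 19.0 in Cre-negative, Cre-positive and IHG offspring; with libraries clustered apart 216 and 21.5 in the floxed pair; with thinned cells 311, 36.7 and 25.3 in Cre-negative, Cre-positive and IHG offspring; and without ghrelin-rich cells 235 and 16.4 in Cre-negative and IHG offspring.

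The Serpina1d share was 37.4% in Cre-negative and 68.2% in IHG offspring by the hormone rule, and 27.3%, 50.6%, 87.8% and 55.3% with no doublets removed. The log2 ratio of cells under 1% to 20% or more Gcg, without hormone and mitochondrial genes, was 2.11 in Cre-negative and 5.72 in IHG offspring.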
